A study of Mus musculus with 12 samples.

Results

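The endoplasmic reticulum (ER) and the Golgi apparatus are the first compartments of the secretory pathway. Their genes were compared between mouse bone marrow stromal cells (BMSCs) undergoing osteogenic induction with and without α-asarone, and 52 genes were followed. These were all genes of the deposited table whose annotation names the ER or the Golgi and none of 4 other terms (kinase activity, mitochondrion, regulation of DNA-templated transcription, extracellular region), with at least 1 TPM (transcripts per 1000000) in at least 6 of the 12 libraries. Before that filter on level 71 genes met the terms, 4 annotated genes having been left out by name, and 102 of the 658 genes in the table carried an ER or Golgi annotation at all. Levels were used in the choice only through the filter over all 12 libraries.

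Both groups were wild-type BMSCs, the adherent stromal cells of marrow, grown in DMEM to which penicillin-streptomycin (1%) and fetal bovine serum (15%) were added. The inducing medium of both groups added ascorbic acid at 50 µM, β-glycerophosphate at 10 mM and dexamethasone at 100 nM. The control group had 6 libraries without the agent. The other 6 libraries came from cells given what the labels spell α-Asaronel, read here as α-asarone, a phenylpropanoid of Acorus oils. Mouse age, dose and exposure time do not appear in the labels, and nothing says whether replicates were separate animals or cultures, so each p-value reflects how these libraries vary, which may be technical variation. The stromal genes Col1a1, Col6a1 and Mmp14 together reached 2709 to 3100 TPM in controls and 2280 to 2554 TPM with α-asarone, ranges that did not overlap. Col1a1 fell (log2 fold change −0.50), Col6a1 rose (0.18) and Mmp14 did not pass. In bulk RNA, fewer cells of a type and less RNA per cell cannot be told apart.

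As background, proteins bound for the cell surface or the matrix enter the ER through a translocation channel, fold there with the help of chaperones and prolyl isomerases, and receive sugar chains that are trimmed by glucosidases and mannosidases. Coated vesicles carry them to the Golgi, and receptors for the ER retention signal return escaped chaperones. Golgi membranes then sort cargo toward the surface, endosomes and lysosomes, while the ER membrane also holds enzymes of sterol and lipid synthesis. Cells that form bone send large amounts of collagen along this route.

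Total estimated counts over the table ranged from 843595 to 1224256 per library. The table holds 5.36% to 5.67% of each library's TPM, so these totals are not sequencing depths. Control replicate 2 had the lowest total and stood apart from the other controls: comparing gene counts with each of them gave a chi-square of 3.97 to 11.2 per degree of freedom, and pairs of the others gave 2.24 to 5.07. Without it 5 of the 52 genes were higher and 8 lower in the edgeR test described next, the same numbers as with it, but the calls of Kdelr1 and Plekha3 were lost and those of Ap1m1 and Itga5 were gained. The 52 genes summed to 4724 to 4884 TPM with α-asarone and to 4687 to 4872 TPM in controls, ranges that overlapped. Of the table's estimated counts they took 8.82% to 9.15% with α-asarone and 8.45% to 8.71% in controls, ranges that did not overlap. Scaled by these same totals, the median log2 fold change was 0.047 in the 52 genes and 0.044 in all tested genes. The median shift was thus similar in both, and the summed share of other gene sets was not compared.

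With α-asarone, Cyp4f18, which encodes a fatty acid hydroxylase of the cytochrome P450 family, fell to 0.536 of its control level. Mmd, which encodes a membrane protein named for monocyte to macrophage differentiation, rose 1.27-fold. These were the largest fall and the largest rise among the genes that passed edgeR's quasi-likelihood test at an adjusted p under 0.05. In all 13 of the 52 genes passed, 5 higher and 8 lower, a share of 25%. Among all 512 tested genes the share was 30.3%, with 12.9% higher and 17.4% lower, so passing was no more frequent among the 52 than in the table. This does not extend to every annotated gene. The 22 other tested genes with an ER or Golgi annotation, outside the 52, had 45.5% passing, 9.09% higher and 36.4% lower. Most differences were small: the median absolute log2 fold change was 0.06 in the 52 genes and 0.08 in all tested genes, and 38 of the 52 lay under 0.1. The median log2 fold change was 0.01 in the 52 genes and 0.00 in all tested genes. Groups did not overlap in TPM for 5 of the 52 genes, against 14.3% of all tested genes. The balance of directions moved with library scaling, since totals over the table in place of TMM factors gave 14 genes higher and 6 lower, 70% rises against 38.5%. Without α-asarone replicate 3 the number of lower genes was 5 rather than 8.

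**Figure D1:**
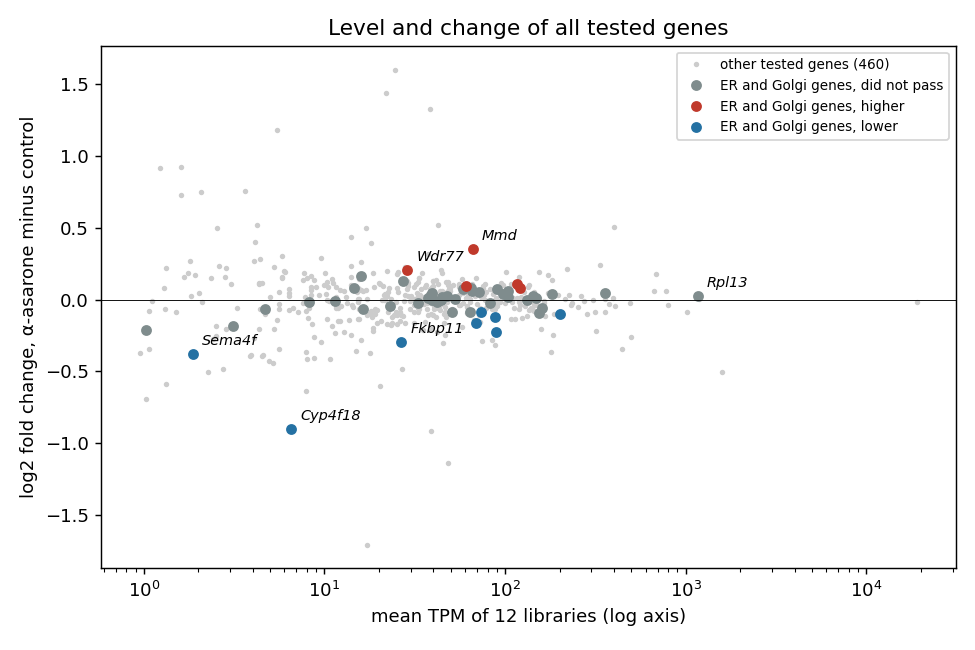
Log2 fold change (α-asarone minus control, vertical axis) against mean TPM over 12 libraries (horizontal log axis), 1 point per tested gene, with the 52 ER and Golgi genes marked. Most of these lie close to 0, and Cyp4f18 at −0.90, Sema4f at −0.38 and Mmd at 0.35 stand farthest from it.

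The stretches upstream of the largest fall, the largest rise and a neighbouring pair that changed in opposite directions are printed because these genes carry the results that follow. They are from RefSeq on GRCm38.p6, read 5′ to 3′ on the gene's strand up to the last base before the annotated gene, and capitals mark CG dinucleotides. They lie at chr8:72009627-72009876 (minus strand) for Cyp4f18, chr11:90249226-90249455 (plus strand) for Mmd, chr2:76673117-76673348 (minus strand) for Fkbp7 and chr2:76675065-76675280 (plus strand) for Plekha3.
Cyp4f18: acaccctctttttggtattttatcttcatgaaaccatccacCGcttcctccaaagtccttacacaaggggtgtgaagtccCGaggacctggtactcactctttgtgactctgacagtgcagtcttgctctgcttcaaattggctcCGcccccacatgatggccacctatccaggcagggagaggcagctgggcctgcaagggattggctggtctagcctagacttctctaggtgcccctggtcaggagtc
Mmd: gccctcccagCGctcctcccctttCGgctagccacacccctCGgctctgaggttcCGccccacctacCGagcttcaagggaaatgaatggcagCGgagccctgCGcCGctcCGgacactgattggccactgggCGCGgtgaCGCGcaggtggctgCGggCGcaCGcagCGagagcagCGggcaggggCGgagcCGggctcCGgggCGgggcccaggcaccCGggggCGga
Fkbp7: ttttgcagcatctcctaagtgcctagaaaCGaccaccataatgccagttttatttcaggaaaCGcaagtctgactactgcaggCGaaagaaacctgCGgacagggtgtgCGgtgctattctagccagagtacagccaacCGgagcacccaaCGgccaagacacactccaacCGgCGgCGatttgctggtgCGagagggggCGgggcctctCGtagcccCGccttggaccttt
Plekha3: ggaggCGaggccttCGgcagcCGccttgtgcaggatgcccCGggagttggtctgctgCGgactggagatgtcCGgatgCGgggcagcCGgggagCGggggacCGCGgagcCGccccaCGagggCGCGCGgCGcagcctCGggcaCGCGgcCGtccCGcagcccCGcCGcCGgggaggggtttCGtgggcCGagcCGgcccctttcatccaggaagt
The stretch of Cyp4f18 held 3 CG dinucleotides in 250 bases, and that of Mmd 24 in 230 bases. Fkbp7 had 14 in 232 bases and Plekha3 had 28 in 216 bases. Promoter windows of 300 bases (250 before to 50 after the RefSeq start) were found for 44 of the 52 genes, with a median of 19.5 CG dinucleotides. The 418 tested genes with a window had a median of 20.5, and all 27025 RefSeq symbols had 7. The 4 risen genes with a window had 25 to 36, and the 8 fallen genes had 3 to 36.

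The deposited annotation put 15 of the 52 genes in the ER but not the Golgi, 25 in the Golgi but not the ER, and 12 in both. The 5 of 15 ER genes that passed all fell (Cyp4f18, Sema4f, Fkbp11, Fkbp7 and Cyp51), with a median log2 fold change of −0.04 over the 15. That is 33.3% lower, beside 17.4% of all tested genes. Among the 25 Golgi genes 5 rose (Mmd, Wdr77, Snx9, Plekha3 and Glg1) and 1 fell (Golga2), with a median of 0.00, so that 20% were higher, beside 12.9% of all tested genes, and 4% lower. Among the 12 genes of both compartments 2 fell (Slc39a13 and Kdelr1), 16.7% of them, with a median of 0.03. The difference between compartments was seen in the data and was not tested. Table totals gave 1 ER gene higher and 5 lower, 8 Golgi genes higher and 0 lower, and, among genes of both compartments, 5 higher and 1 lower, which turns the balance of that last set. Limma on log2(TPM + 1) gave 4 ER genes lower and 0 higher, and 2 Golgi genes in each direction.

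**Figure D2:**
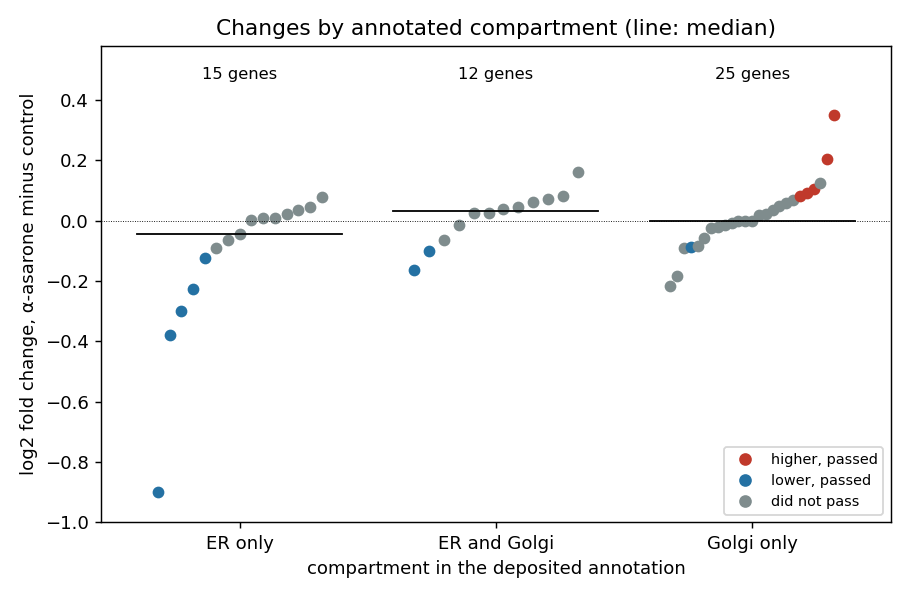
Log2 fold change (α-asarone minus control) of each gene by annotated compartment, for 15 ER, 12 ER and Golgi, and 25 Golgi genes. The 5 ER genes that passed lie below 0, and 5 of the 6 Golgi genes that passed lie above 0.

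Among 6 genes of protein insertion, folding and glycan trimming, the prolyl isomerase genes Fkbp11 and Fkbp7 fell and the other 4 did not pass. The share lower was 33.3%, beside 17.4% of all tested genes. Fkbp11 (ENSMUSG00000003355, chromosome 15, 98724366 to 98728198), which encodes a membrane-bound FK506-binding protein of secretory cells, was at 26.6 to 33.2 TPM in controls (median 29.3) and 20.02 to 25.6 TPM with α-asarone (median 24.8). Every α-asarone library lay below every control (log2 fold change −0.30 ± 0.08 (SE), edgeR adjusted p = 0.0064). Fkbp7 (ENSMUSG00000002732, chromosome 2, 76663044 to 76673116), which encodes a lumenal FK506-binding protein, was at 86.7 to 99.7 TPM in controls (median 96.7) and 73.3 to 97.5 TPM with α-asarone (median 79.9). Here 5 of the 6 α-asarone libraries lay below all controls and 1 lay among them (log2 fold change −0.23 ± 0.05 (SE), edgeR adjusted p = 0.0018).

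Ssr4, the gene of the delta subunit of the translocon-associated protein complex, had 159 ± 12.6 TPM in the control group and 148 ± 6.43 TPM in the α-asarone group (mean ± SD, n = 6 each). It did not pass (log2 fold change −0.09 ± 0.04 (SE), edgeR adjusted p = 0.10). Prkcsh, which encodes the beta subunit of glucosidase II, had 148 ± 6.43 and 149.6 ± 4.70 TPM in the same order. Man1a, a Golgi mannosidase gene, had 143 ± 2.30 and 144 ± 4.94 TPM. The 95% confidence intervals of the log2 fold change ran from −0.05 to 0.06 for Prkcsh and from −0.02 to 0.07 for Man1a. Lmf1, which encodes the ER factor that matures lipoprotein lipase, had a log2 fold change of −0.04 ± 0.06.

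Of 80 genes on a list of ER folding and quality control, 5 were tested, Fkbp11, Fkbp7 and 3 outside the 52. Of these Calr, the lectin chaperone calreticulin, was lower at 989 ± 17.5 TPM with α-asarone against 1054 ± 18.2 TPM in the control group (log2 fold change −0.09 ± 0.02 (SE), edgeR adjusted p = 0.0060), and Sdf2 and Bcap31 did not pass. In that list 3 of 5 tested genes were lower and 0 higher, with a median log2 fold change of −0.09, beside 17.4% lower, 12.9% higher and a median of 0.00 in all tested genes. So few tested genes do not describe the list as a whole. With table totals the adjusted p of Calr was 0.11, while Fkbp7 and Fkbp11 passed in all 23 alternatives. Col1a1, the main collagen chain gene of bone, was at 1852 ± 141 TPM in the control group and 1304 ± 78.8 TPM with α-asarone, and its part in these falls was not tested.

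Of 8 genes of transport between the ER and the Golgi, 2 fell slightly and 6 did not pass. Thus 25% were lower, beside 17.4% of all tested genes. Kdelr1, a receptor that returns proteins with the ER retention signal, was at 188 to 221 TPM in controls (median 203) and 188 to 207 TPM with α-asarone (median 193). The ranges overlapped widely (log2 fold change −0.10 ± 0.03 (SE), edgeR adjusted p = 0.025). That call was lost without α-asarone replicate 3, 4 or 6 or control replicate 2 or 5 (adjusted p 0.053 to 0.087), with table totals (0.24) and in limma on log2(TPM + 1) (0.23). Golga2, which encodes the cis-Golgi matrix protein GM130, was at 73.3 to 82.03 TPM in controls (median 78.9) and 61.7 to 74.6 TPM with α-asarone (median 71.03). In 4 of 6 α-asarone libraries it lay below all controls (log2 fold change −0.09 ± 0.03 (SE), edgeR adjusted p = 0.023). As a ratio of mean TPM the log2 difference of Golga2 was −0.17, since its counts per TPM, which follow the effective transcript length, differed by 0.09. For Kdelr1 the log2 ratio of mean TPM was −0.07, and its counts per TPM differed by −0.03. The call of Golga2 was lost without α-asarone replicate 3 (adjusted p = 0.062), without control replicate 3 (0.070) and with table totals (0.26).

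Ergic1, a gene of the intermediate compartment between ER and Golgi, had 180.1 ± 5.43 TPM in the control group and 185 ± 8.32 TPM with α-asarone. Rabac1, which encodes a Golgi receptor for prenylated Rab GTPases, had 163 ± 10.1 and 156 ± 12.02 TPM in the same order. Rabac1 passed only without α-asarone replicate 5 (log2 fold change −0.10, adjusted p = 0.039). The cargo lectin gene Lman2l (log2 fold change −0.06 ± 0.06) and the ER SNARE gene Use1 (0.08 ± 0.05) did not pass. Of the tethering complex genes, Trappc6a was at 0.16 ± 0.10 and Trappc10 at 0.07 ± 0.03, with an adjusted p of 0.061 for Trappc10. Trappc10 passed in 9 of 23 alternatives, among them those without α-asarone replicate 2 or 4 or control replicate 6 (adjusted p 0.032 to 0.048).

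**Figure D3:**
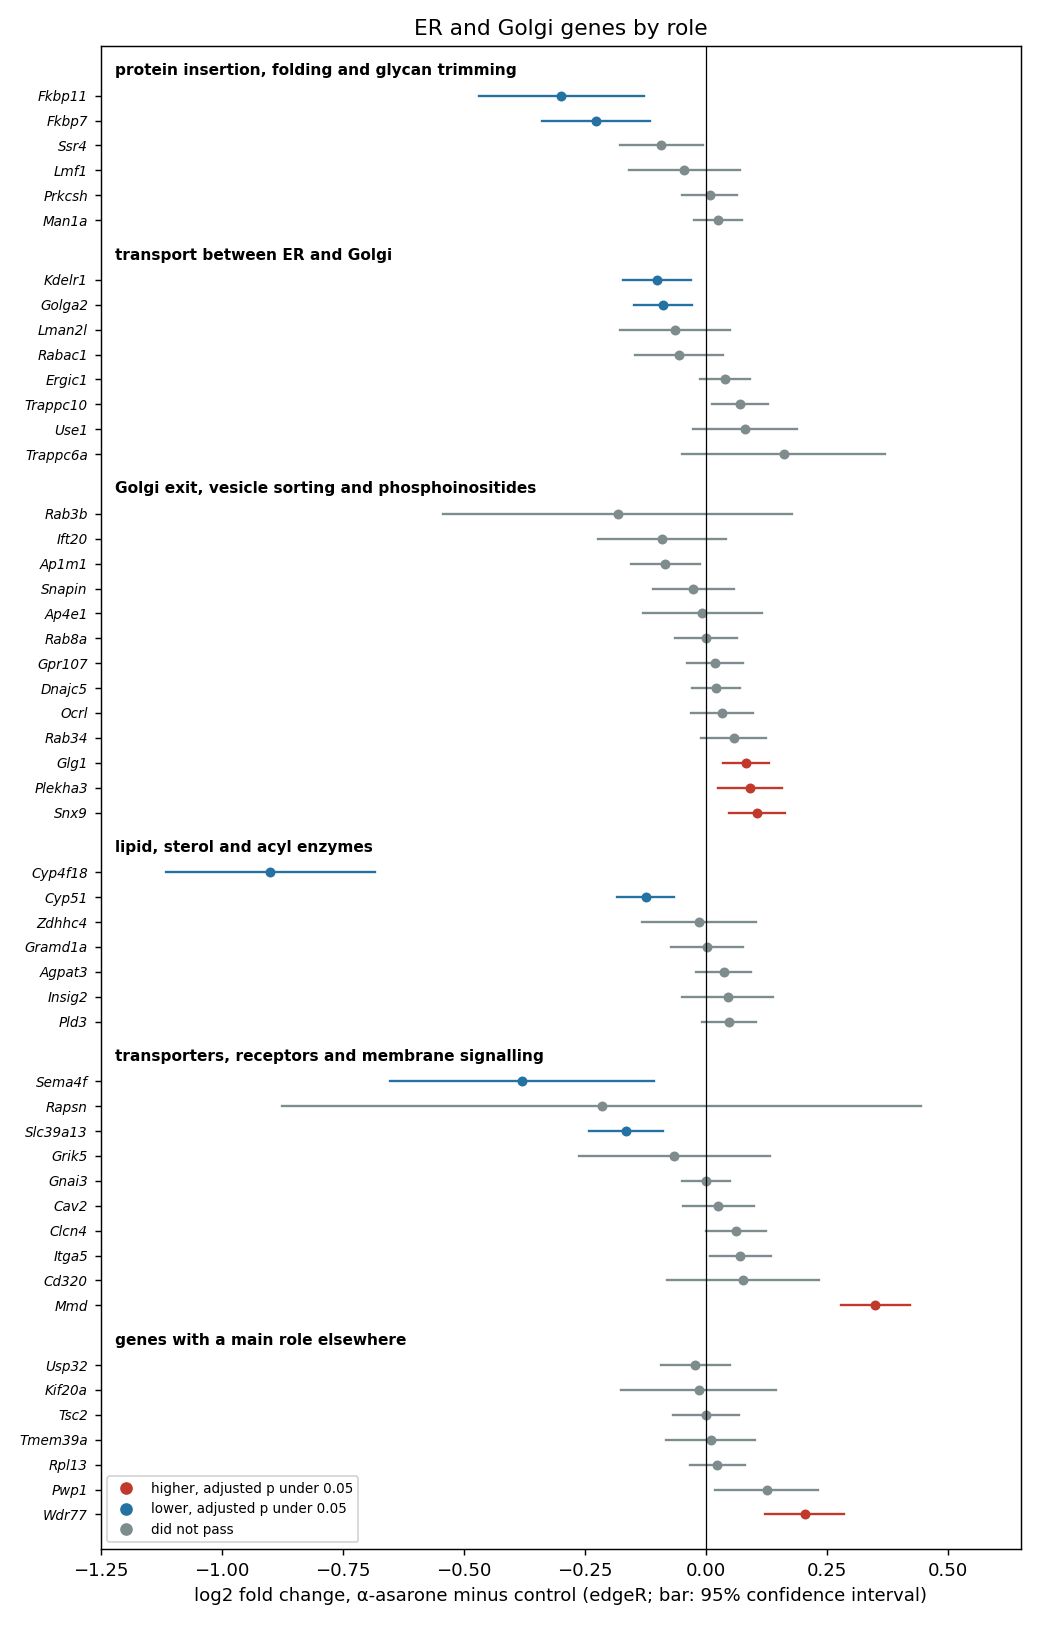
Log2 fold change (α-asarone minus control) of 51 of the 52 genes with its 95% confidence interval, grouped by role, with genes that passed coloured by direction. Fkbp11 and Fkbp7 stand below 0 in the folding group, and Snx9, Plekha3 and Glg1 are the 3 genes that passed in the group of Golgi exit and sorting.

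Of 13 genes of Golgi exit, vesicle sorting and phosphoinositides, 3 rose and 0 fell. That is 23.1% called, beside 30.3% of all tested genes (12.9% higher). Snx9, which encodes a sorting nexin that binds membranes and actin regulators in endocytosis, was at 107 to 125 TPM in controls (median 110.4) and 115 to 125 TPM with α-asarone (median 119.9). The ranges overlapped (log2 fold change 0.11 ± 0.03 (SE), edgeR adjusted p = 0.0053). Glg1, a Golgi glycoprotein gene, was at 117 to 121 TPM in controls (median 118) and 115 to 130.4 TPM with α-asarone (median 124). The lowest library of all was in the α-asarone group, although its median was higher (log2 fold change 0.08 ± 0.02 (SE), edgeR adjusted p = 0.0060). For Glg1 the log2 ratio of mean TPM was 0.06, and its counts per TPM differed by 0.03. Plekha3, which encodes a protein that binds phosphatidylinositol phosphate at the Golgi, was at 56.7 to 62.8 TPM in controls (median 58.8) and 59.8 to 64.6 TPM with α-asarone (median 63.5). In 4 of 6 α-asarone libraries Plekha3 exceeded all controls (log2 fold change 0.09 ± 0.03 (SE), edgeR adjusted p = 0.031). In limma on log2(TPM + 1) none of these 3 genes passed, at an adjusted p of 0.054 for Snx9, 0.25 for Glg1 and 0.061 for Plekha3. The edgeR call of Plekha3 was also lost without α-asarone replicate 1, 4 or 5 or control replicate 2, 5 or 6 (adjusted p 0.053 to 0.089).

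Plekha3 and Fkbp7 are neighbours on chromosome 2, transcribed away from each other with 2164 bases between the annotated genes and no coding gene in the gap. In the α-asarone group Fkbp7 was lower and Plekha3 higher. The upstream stretches printed above are the ends of that gap next to each gene. The other 5 pairs that lie near each other among the 52, with gaps of 16061 to 151573 bases, had at most 1 gene that passed. Not all of these are adjacent genes. Rabac1 and Grik5 have 1 coding gene between them. Cyp4f18 and Rab8a have 4, as do Rab8a and Ap1m1.

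**Figure D4:**
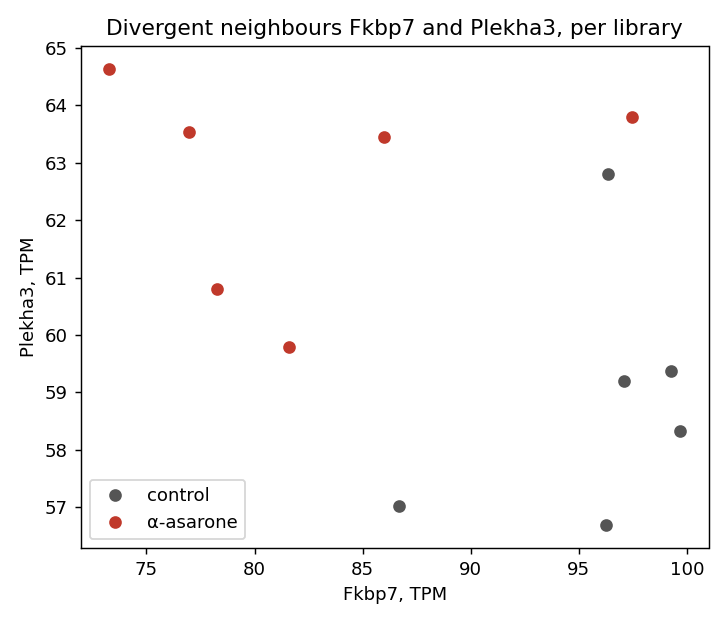
TPM of Plekha3 against TPM of Fkbp7, 1 point per library, coloured by group. 5 α-asarone libraries lie at lower Fkbp7 than every control, and 1 lies among the controls at 97.5 TPM.

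The other 10 genes of this role did not pass. Ap1m1, which encodes the medium chain of a clathrin adaptor of the trans-Golgi network, was at 50.8 to 56.2 TPM in controls (median 51.7) and 45.9 to 50.6 TPM with α-asarone (median 49.6). The groups did not overlap (log2 fold change −0.08 ± 0.04 (SE), edgeR adjusted p = 0.071), and Ap1m1 passed without control replicate 2 (adjusted p = 0.041) and in limma on log2(TPM + 1) (0.045). Ap4e1, of another Golgi adaptor, had a log2 fold change of −0.01 ± 0.06. Precision differed widely among the small GTPase genes Rab8a (0.00 ± 0.03 at a mean of 43.9 TPM), Rab34 (0.06 ± 0.03 at 103 TPM) and Rab3b (−0.18 ± 0.18 at 3.10 TPM). For Rab3b the log2 ratio of mean TPM was −0.06, and its counts per TPM differed by −0.12. Ocrl, an inositol phosphatase gene, was at 0.03 ± 0.03, Gpr107 at 0.02 ± 0.03 and the vesicle chaperone gene Dnajc5 at 0.02 ± 0.02. The SNARE-binding gene Snapin was at −0.03 ± 0.04 and the ciliary transport gene Ift20 at −0.09 ± 0.06.

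Among 7 genes of lipid, sterol and acyl enzymes, 2 cytochrome P450 genes fell. They made up 28.6% of the set, beside 17.4% lower among all tested genes. Cyp4f18 (ENSMUSG00000003484, chromosome 8, 71988482 to 72009626) was at 7.92 to 9.70 TPM in controls (median 8.40) and 3.77 to 5.24 TPM with α-asarone (median 4.58). The lowest control lay well above the highest α-asarone library (log2 fold change −0.90 ± 0.11 (SE), edgeR adjusted p = 5.5e-08), and the difference was −46.4% with a 95% confidence interval from −53.8% to −37.7%. The enzyme is known for oxidizing leukotrienes in mouse leukocytes. Of 4 myeloid markers tested, Cfp and Spi1 rose, Clec10a did not pass and Itgb2 fell (−0.10 on the log2 scale), and their summed level was 834 to 923 TPM in controls and 967 to 1123 TPM with α-asarone. Acp5, the 1 osteoclast marker tested, was at 57.9 to 78.4 TPM in controls and 25.1 to 38.4 TPM with α-asarone, and its part in the fall of Cyp4f18 was not tested. Of 4 adipocyte markers tested, Plin4 (0.43), Cd36 (0.24) and Lipe (0.40) rose and Pparg (−0.05) did not pass. Their summed level was 349 to 406 TPM in controls and 393 to 507 TPM with α-asarone, and its part in the values of the lipid and sterol genes was not tested. Cnn1, the 1 smooth muscle marker tested, fell (−1.71), and so did the chondrocyte marker Sox9 (−0.26).

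Cyp51 (ENSMUSG00000001467, chromosome 5, 4081145 to 4104746), the lanosterol demethylase of cholesterol synthesis, was at 88.5 to 94.7 TPM in controls (median 92.5) and 79.99 to 90.4 TPM with α-asarone (median 83.2). In 5 of 6 α-asarone libraries it was below all controls (log2 fold change −0.12 ± 0.03 (SE), edgeR adjusted p = 0.0012). Insig2, which encodes an ER protein that restrains sterol synthesis, had 37.9 ± 3.12 TPM in the control group and 40.6 ± 4.86 TPM with α-asarone and did not pass (log2 fold change 0.05 ± 0.05). Gramd1a, of sterol transfer between the plasma membrane and the ER, was at 0.00 ± 0.04. Agpat3, a lysophospholipid acyltransferase gene, had 97.04 ± 5.55 and 96.99 ± 3.45 TPM in the same order. Pld3, a gene of the phospholipase D family, had 353 ± 7.12 and 362 ± 16.7 TPM and did not pass (log2 fold change 0.05 ± 0.03 (SE), edgeR adjusted p = 0.20). It passed with table totals (adjusted p = 0.014) and without α-asarone replicate 5 (0.034). Zdhhc4, of protein palmitoylation, was at −0.01 ± 0.06.

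Of 10 transporters, receptors and membrane signalling genes, 1 rose and 2 fell. That is 10% higher and 20% lower, beside 12.9% and 17.4% of all tested genes. Mmd (ENSMUSG00000003948, chromosome 11, 90249456 to 90278589) was at 54.998 to 61.7 TPM in controls (median 58.5) and 69.1 to 82.99 TPM with α-asarone (median 73.5). All α-asarone libraries exceeded all controls (log2 fold change 0.35 ± 0.03 (SE), edgeR adjusted p = 2.1e-09). Estimated counts of Mmd were not whole in 83.3% of libraries, and the annotated genes Gm45716 and Gm45883 overlap it on its own strand. Slc39a13 (ENSMUSG00000002105, chromosome 2, 91061791 to 91070417), a zinc transporter gene of the secretory pathway known from a connective tissue disorder, was at 68.9 to 77.3 TPM in controls (median 73.9) and 58.1 to 68.4 TPM with α-asarone (median 66.9). The α-asarone libraries all lay below the lowest control (log2 fold change −0.16 ± 0.04 (SE), edgeR adjusted p = 0.0011). Psmc3 overlaps Slc39a13 on the other strand, and the labels do not say whether the libraries kept strand.

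Sema4f, a membrane semaphorin gene, was at 1.79 to 2.56 TPM in controls (median 1.94) and 1.13 to 2.51 TPM with α-asarone (median 1.66). The ranges overlapped at this low level (log2 fold change −0.38 ± 0.13 (SE), edgeR adjusted p = 0.030), with a mean of 61.8 counts. As a ratio of mean TPM the log2 difference of Sema4f was smaller, at −0.26, and its counts per TPM differed by −0.08. The call was lost without α-asarone replicate 1 or 3 or control replicate 4 (adjusted p 0.056 to 0.10) and in limma on log2(TPM + 1) (0.28). The fibronectin receptor gene Itga5 had 87.7 ± 3.92 TPM in the control group and 91.9 ± 5.35 TPM with α-asarone, with an edgeR adjusted p of 0.083, and passed without α-asarone replicate 3 (0.021) or control replicate 2 (0.044). Clcn4, a chloride and proton exchanger gene, was at 0.06 ± 0.03 and passed with table totals and without control replicate 4. Gnai3, an inhibitory G protein gene, had 133 ± 3.97 and 133 ± 2.23 TPM, with a 95% confidence interval of the log2 fold change from −0.05 to 0.05. The caveolin gene Cav2 (0.03 ± 0.04), the cobalamin receptor gene Cd320 (0.08 ± 0.08), the kainate receptor gene Grik5 (−0.07 ± 0.10) and Rapsn (−0.22 ± 0.32) did not pass.

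**Figure D5:**
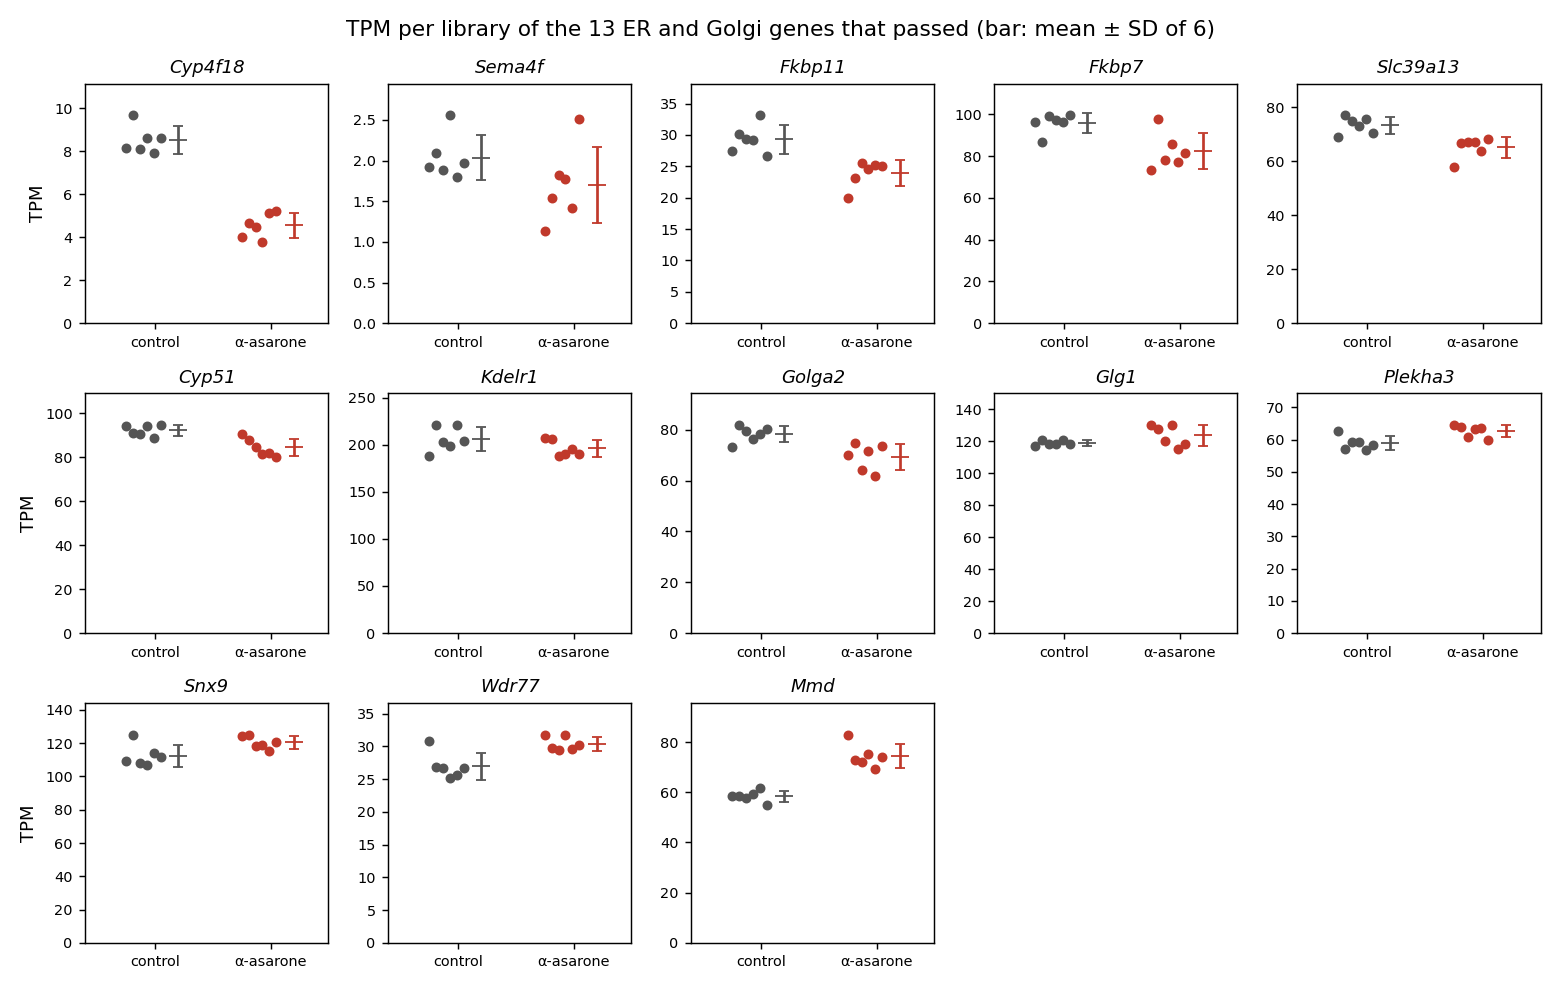
TPM of the 13 genes that passed edgeR's test in each library, controls beside α-asarone, with the mean ± SD of 6 libraries and vertical axes starting at 0. The groups are apart in Cyp4f18, Fkbp11, Slc39a13 and Mmd, and they overlap in the other 9 genes.

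A last set of 8 genes carries an ER or Golgi term but was grouped as having a main role elsewhere. Tmem39a was placed in this set although its annotation names the ER membrane. Rpl13, a ribosomal protein gene and the most abundant of the 52, had 1158 ± 26.04 TPM in the control group and 1175 ± 52.8 TPM with α-asarone and did not pass. Wdr77, which encodes a partner of an arginine methyltransferase in spliceosome assembly, was at 25.1 to 30.8 TPM in controls (median 26.6) and 29.4 to 31.8 TPM with α-asarone (median 29.97). All but 1 of the controls lay below all α-asarone libraries (log2 fold change 0.20 ± 0.04 (SE), edgeR adjusted p = 1.9e-04). Atp5f1 overlaps Wdr77 on the other strand, and Gm42890 on its own strand. Pwp1, of ribosome production, was at 0.13 ± 0.05 with an adjusted p of 0.067, and passed without α-asarone replicate 2 or 5 or control replicate 6 (adjusted p 0.021 to 0.042). The growth regulator gene Tsc2 (0.00 ± 0.03), the deubiquitinase gene Usp32 (−0.02 ± 0.03), the mitotic kinesin gene Kif20a (−0.01 ± 0.08) and Tmem39a (0.01 ± 0.04) did not pass.

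The 52 genes had a median level of 59.8 TPM, against 35.6 TPM in all tested genes, and a median coefficient of variation of 5.26% among controls and 5.58% with α-asarone. Of 13 role lists for the secretory pathway, with 911 genes, 29 genes were tested, 19 of them among the 52. Among these 29, 1 rose and 9 fell, beside 12.9% higher and 17.4% lower among all tested genes. Both directions together made 10 of 29, beside 30.3% of all tested genes. The rise was Sec24b, of vesicle coats (log2 fold change 0.10, edgeR adjusted p = 0.011). The falls outside the 52 were Calr, the Golgi mucin-type glycosylation gene Galnt1 (−0.11, adjusted p = 5.3e-04) and the gamma-secretase gene Ncstn (−0.07, adjusted p = 0.036).

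Promoter windows were searched on both strands for 6 elements. A gene was counted if any of its windows held the element, so a gene with several windows had more chances. The ER stress response element (CCAAT, any 9 bases, CCACG) was in 0 of 44 genes with a window, and in 0.137% of all RefSeq symbols. The unfolded protein response element was in 1 gene (Slc39a13), against 0.714%. The letters ACGTGGC, which share ACGTGG with it, were in 3 genes (Fkbp11, Slc39a13 and Tmem39a), 6.82% against 2.95%. The E-box CACGTG was in 7 genes, 15.9% against 8.09%, the cAMP response element in 4, 9.09% against 2.03%, and CCAAT in 21, 47.7% against 41.1%. Among tested genes with a window the shares were 0.239% for the ER stress response element, 1.2% for the unfolded protein response element, 2.87% for ACGTGGC, 13.2% for the E-box, 4.07% for the cAMP response element and 46.4% for CCAAT.

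At the edge of the filter, Rapsn, the gene of the receptor-clustering protein of the neuromuscular junction, reached 1 TPM in 6 libraries with a mean of 1.02 TPM and was inside. Bicd1, of transport along microtubules, reached it in 3 libraries with a mean of 0.702 TPM and was outside. Of the 19 genes below the filter 4 were listed at 0 in every library (Grm6, Vpreb3, Cyp2c29 and Crhr2). Reads can be shared between genes, since 31 of the 52 overlap another annotated gene, 10 of them on their own strand.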

How the data were processed

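Poly(A) RNA of 12 libraries was sequenced, per the labels' protocols. The authors deposited 1 table that holds TPM and estimated counts, per the file headers. In each library 7.45% to 9.57% of genes have an estimated count that is not whole. Builds GRCm38 and mm10 are named in the submitters' processing notes; the aligner and quantifier were not given in the sources used here.

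Rounded estimated counts were tested with edgeR 4.0.16 in R 4.3.3 (glmQLFit and glmQLFTest, TMM factors 0.976 to 1.03, no covariate) over 512 genes with at least 1 TPM in at least 6 libraries, with Benjamini-Hochberg adjustment over all of them. The test was checked on simulated data. Replicate pairs differed beyond sampling noise (chi-square per degree of freedom 2.24 to 11.2, the highest in pairs with control replicate 2). Pairs with α-asarone replicate 1 gave 5.04 to 7.36, and pairs of the other α-asarone libraries gave 2.30 to 5.23. Coordinates are from GENCODE M21 on GRCm38, which matched all 658 identifiers.

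Alternatives were other filters, scalings, tests (DESeq2 1.42.0, limma 3.58.1), pseudocounts, the replicate block and each library left out; the fit on genes with whole counts was added after seeing the data. Genes, lists and roles were chosen with earlier results of these data known. Genes named by rule were up to 12 called rises and 12 called falls with at least 5 TPM in 1 group, the 6 most abundant, and up to 3 per role list. The others, Sema4f among them, were named after their values were seen, to account for the 52; the values of 1 gene are not reported here, though it is in every count.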

Additional observations from a re-analysis of the deposited data

Results flagged for a closer look

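In 104 groups of 6 libraries (51 of the 52 genes and the total count, in each condition), 7 had a highest or lowest value set apart from its nearest neighbour by more than Dixon's 95% critical value. Chance gives about 1 in 20 groups, here 5.2. In control replicate 2 Fkbp7 was 86.7 TPM (others 96.3 to 99.7), and the total estimated count of that library was 843595 (others 1068547 to 1173845). Wdr77 was 30.8 TPM (others 25.1 to 26.9) in control replicate 1. Ap4e1 was 14.5 TPM (others 10.6 to 11.7) in control replicate 4. In α-asarone replicate 5 Rabac1 was 179 TPM (others 145 to 158). In α-asarone replicate 4 Ergic1 was 200.2 TPM (others 178 to 186) and Tmem39a was 31.1 TPM (others 37.4 to 40.97).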

How the results depend on the processing

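Of the 13 genes that passed, 7 (Cyp4f18, Fkbp11, Fkbp7, Slc39a13, Cyp51, Mmd and Wdr77) passed in each of the 23 alternatives in which they were tested, and 6 lost the call in some. Of the 39 that did not pass, 28 passed in no alternative. With table totals 20 genes passed against 13, 14 against 5 of them higher, and 127 against 66 of all tested genes were higher, as the median of all genes shifted by 0.04. Limma with a pseudocount of 0.1, 1 or 5 TPM left 2 higher genes in each. The replicate block gave 8 higher genes and 8 lower. Leaving out each library gave 11 to 15 genes passing, 4 to 7 higher and 5 to 9 lower, and over all genes 138 to 152, 58 to 68 and 78 to 88. The 6 correlations between libraries that share a replicate number were −0.04 to 0.14, and for 2 of 6 numbers the best match was the same number, so the block rests on a shared number alone. Over 26 named genes, 0 of 593 alternative values reversed a called direction, 47 lost a call, 10 gained one and 536 did neither. Ncstn lost its call in 13 of 22 alternatives. The cause of these changes was not tested. Low counts limit precision: the SE was 0.02 for Glg1 at a mean of 6453 counts and 0.32 for Rapsn at 13.7.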
